A study of Mus musculus with 16 samples.

Results

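Glypicans and syndecans are the cell-surface carriers of heparan sulfate, and the 10 mouse genes of their core proteins, Gpc1 to Gpc6 and Sdc1 to Sdc4, were followed in hippocampal neurons given lipoproteins of each human apoE isoform. The genes were chosen by symbol as the complete glypican and syndecan families, 10 of 48397 gene symbols counted, and all 10 were among the 17038 genes with enough reads to be tested. The neurons were primary cultures from the hippocampus of CD1 mice, treated with AraC, a blocker of DNA synthesis, at 3 days in vitro (DIV) to restrain dividing cells. Medium conditioned by immortalized astrocytes was concentrated 10-fold and added at 10 and 13 DIV, and RNA was taken at 17 DIV. The control group received medium of immortalized Apoe-/- astrocytes, and the apoE2, apoE3 and apoE4 groups received medium of immortalized astrocytes homozygous for human APOE ε2, ε3 or ε4, made from targeted replacement mice in which the human gene takes the place of the mouse gene. The 4 groups therefore differ in the astrocyte line as well as in the apoE they received, and these cannot be told apart. Each group held 4 libraries from separate cultures, numbered 1 to 4 in the labels.

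Heparan sulfate is a sulfated sugar chain that binds growth factors, Wnt and Hedgehog proteins, synaptic adhesion proteins and lipoproteins, apoE among them, and cell-surface heparan sulfate proteoglycans act with receptors of the LDL receptor family in lipoprotein uptake. Glypicans are held in the outer leaflet of the membrane by a lipid anchor (GPI), whereas syndecans cross the membrane and carry a short cytoplasmic tail that binds PDZ proteins and the cytoskeleton. In the nervous system, Gpc4 and Gpc6 are known as astrocyte-secreted factors that promote excitatory synapse formation, Sdc3 is a syndecan of axons, Sdc2 takes part in spine formation, and Sdc1 and Sdc4 are syndecans of many adherent and glial cells.

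Each library had 14087723 to 34248172 counts on genes, with a median of 22221832. Lars2, which contains ribosome-like sequence, accounted for 0.359 to 15.02% of a library. All 9 neuron markers had reads in each library, and their summed level was 3167 to 8063 CPM (counts per 1000000 counts on genes, scaled by TMM factors). All 8 astrocyte markers also had reads in every library, and their sum was 1152 to 5578 CPM. The astrocyte sum had a median of 2011 CPM in control, 2610 with apoE2, 3369 with apoE3 and 3178 with apoE4, and the ranges of the groups overlapped. Libraries with the same number in different groups deviated together from their group means, so each gene was fitted without and with the number as a block ("replicate block"). Both values are printed for the members called with the block, and for the other genes the blocked value is printed, with what the fit without the block called said beside it. In these bulk libraries more RNA of a gene per cell and more cells of a type that express it cannot be told apart.

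The promoter windows of Sdc4, Sdc1, Gpc3 and Gpc4 are shown because these 4 genes carry the changes described below. Each runs from 250 bases before to 50 bases after the transcript start in RefSeq on GRCm38.p6 and is written 5′ to 3′ on the strand of the gene. Capitals mark a GC box (GGGCGG on either strand), a CCAAT box (CCAAT on either strand) or a TEAD motif (GGAATG on either strand), none of which overlapped another.
Sdc4, chr2:164443139-164443438, minus strand: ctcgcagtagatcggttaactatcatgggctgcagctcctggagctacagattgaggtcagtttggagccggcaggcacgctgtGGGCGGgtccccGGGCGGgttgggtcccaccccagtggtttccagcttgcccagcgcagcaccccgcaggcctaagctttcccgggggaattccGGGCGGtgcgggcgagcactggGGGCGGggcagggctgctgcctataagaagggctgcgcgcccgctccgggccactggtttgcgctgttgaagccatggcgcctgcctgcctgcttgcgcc
Sdc1, chr12:8771146-8771445, plus strand: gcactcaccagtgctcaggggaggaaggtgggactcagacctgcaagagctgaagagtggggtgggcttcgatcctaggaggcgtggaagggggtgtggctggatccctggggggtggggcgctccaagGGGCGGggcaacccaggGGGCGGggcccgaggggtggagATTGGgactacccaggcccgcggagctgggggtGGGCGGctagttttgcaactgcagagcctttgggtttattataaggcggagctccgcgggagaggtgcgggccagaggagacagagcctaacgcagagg
Gpc3, chrX:52613925-52614224, minus strand: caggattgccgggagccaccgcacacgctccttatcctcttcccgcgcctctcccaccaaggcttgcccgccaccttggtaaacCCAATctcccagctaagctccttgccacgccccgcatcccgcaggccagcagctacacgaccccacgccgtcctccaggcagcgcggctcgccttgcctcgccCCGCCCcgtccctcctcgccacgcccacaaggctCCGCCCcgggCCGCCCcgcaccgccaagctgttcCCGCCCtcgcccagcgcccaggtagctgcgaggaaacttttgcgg
Gpc4, chrX:52164874-52165173, minus strand: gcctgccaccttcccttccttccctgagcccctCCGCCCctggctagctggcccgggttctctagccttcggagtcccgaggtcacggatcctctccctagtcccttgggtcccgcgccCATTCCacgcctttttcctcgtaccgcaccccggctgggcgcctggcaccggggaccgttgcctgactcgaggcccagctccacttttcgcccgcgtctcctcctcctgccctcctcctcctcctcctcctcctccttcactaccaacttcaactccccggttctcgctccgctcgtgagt

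The Sdc4 and Gpc3 windows each held 4 GC boxes, the Sdc1 window 3 and the Gpc4 window 1. A GC box was present in 35.7% of all 32851 promoter windows of the same length. A CCAAT box was found in the Sdc1 and Gpc3 windows, and 37.4% of all windows held this motif. The Gpc4 window held the only TEAD motif among the 4, a motif present in 14.7% of all windows. The AP-1 motif TGANTCA, the E-box with the letters CACGTG and the TATA box with the letters TATAAA had no match in these 4 windows, against 7.81%, 7.15% and 13.6% of all windows. The 4 windows had a GC content of 66.3 to 70.7%, and the median of all windows was 52.7%. Of the other members, Gpc2, Gpc5 and Sdc3 had a window in the RefSeq table.

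The control cultures contained mainly 4 of the core transcripts. Levels between genes are compared as CPM per kb of exon, with exon lengths from GENCODE M21. In the 4 control libraries, Sdc4 had the highest mean level, 29.5 ± 21.5 CPM per kb (SD, n = 4), followed by Sdc3 with 28.0 ± 2.64, Gpc1 with 27.8 ± 8.17 and Sdc2 with 16.5 ± 3.95. The ranges of these 4 neighbours overlapped, and Sdc4 spread from 7.81 to 59.2 CPM per kb. Gpc4 was next with 9.70 ± 2.94 CPM per kb, and each of its control libraries lay below every control library of Sdc2, Gpc1 and Sdc3, while its range overlapped that of Sdc4. Sdc1 (2.06 ± 1.24), Gpc3 (2.01 ± 1.00), Gpc5 (0.968 ± 0.384) and Gpc6 (0.538 ± 0.317) followed with ranges that overlapped from each to the next, and Sdc1 in turn lay below every library of Gpc4. Gpc2 was lowest with 0.0963 ± 0.0390 CPM per kb and did not overlap Gpc6. Among the genes tested, the control level per kb was at the 91.8th percentile for Sdc4 and at the 2.60th percentile for Gpc2.

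**Figure D1:**
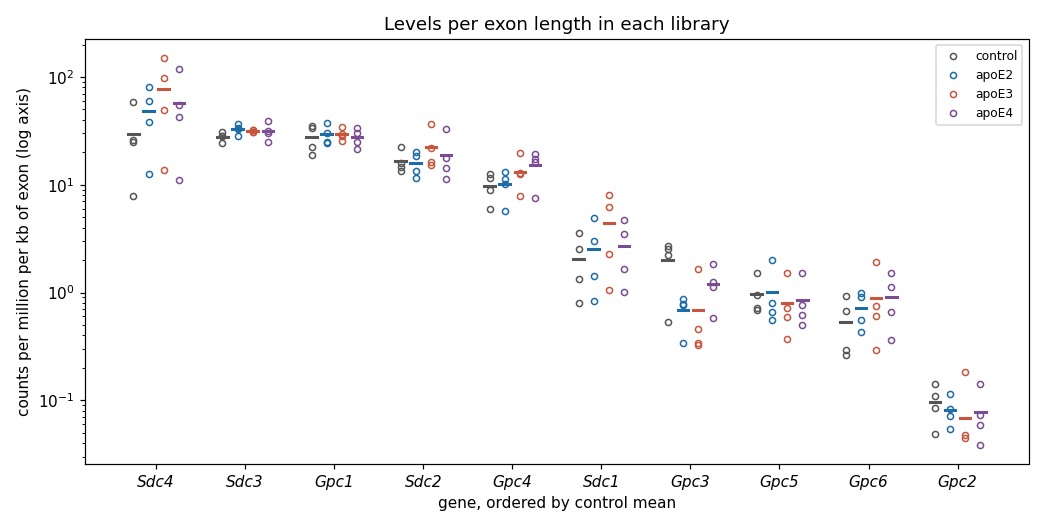
Levels per exon length of the 10 core genes, in CPM per kb on a log axis, ordered by the control mean. Each open circle is 1 library, each bar the mean of 4 libraries and each colour a group, and the apoE3 library of Gpc2 with 0 counts is not drawn. Sdc4 spreads most among the 4 abundant genes, and Gpc3 has its highest mean in control.

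The order of the abundant genes was the same in all 4 groups, with Sdc4, Sdc3, Gpc1, Sdc2, Gpc4 and Sdc1 from the first to the sixth place. The places of Gpc3, Gpc5 and Gpc6 changed. Gpc3 was seventh in control, ninth with apoE2 and apoE3, and seventh again with apoE4, where it stood at 1.20 CPM per kb. Summed over the 4 syndecans, the mean level was 76.0 ± 26.2 CPM per kb in control, 99.3 ± 34.0 with apoE2, 135.9 ± 70.8 with apoE3 and 110.2 ± 53.8 with apoE4 (SD, n = 4 each). The 6 glypicans together had 41.1 ± 4.96 CPM per kb in control, 41.9 ± 6.91 with apoE2, 45.3 ± 6.21 with apoE3 and 45.7 ± 2.97 with apoE4. The syndecan sums overlapped between all groups, and so did the glypican sums. Within pairs of the same replicate number, Sdc1, Sdc2, Sdc3 and Sdc4 were each above control in 4 of 4 pairs with apoE3. They were above in 3, 2, 3 and 4 pairs with apoE2 and in 4, 3, 3 and 4 with apoE4. Sdc4 made up on average 35.4% of the syndecan sum in control, 44.25% with apoE2, 50.1% with apoE3 and 45.35% with apoE4. Gpc1 made up 66.5%, 69.7%, 65.6% and 60.2% of the glypican sum in these groups.

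Of the 10 members, 7 had most of their variance between replicate numbers. For Sdc4, 81.8% of the variance of log2 CPM lay between the 4 replicate numbers and 13.4% between the 4 groups, and for Sdc1 the shares were 84.8% and 10.6%. Gpc5 had the largest share between numbers, 88.2%, and the median gene tested had 56.1% between numbers and 14.4% between groups. For Gpc3 the groups took 40.4% and the numbers 39.5%, and for Sdc3 (25.7% each) and Gpc2 (14.1% and 14.6%) the shares were also close to each other. Libraries numbered 2 had the lowest Sdc4 in every group and those numbered 4 exceeded them by 7.58-fold in control, 4.73-fold with apoE2, 10.8-fold with apoE3 and 10.8-fold with apoE4. The summed astrocyte markers moved the same way, with a ratio between the same libraries of 2.13 in control, 2.26 with apoE2, 3.64 with apoE3 and 3.26 with apoE4. Gpc5 moved the opposite way, and its libraries numbered 4 had 0.241 to 0.457 times the level of those numbered 2.

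**Figure D2:**
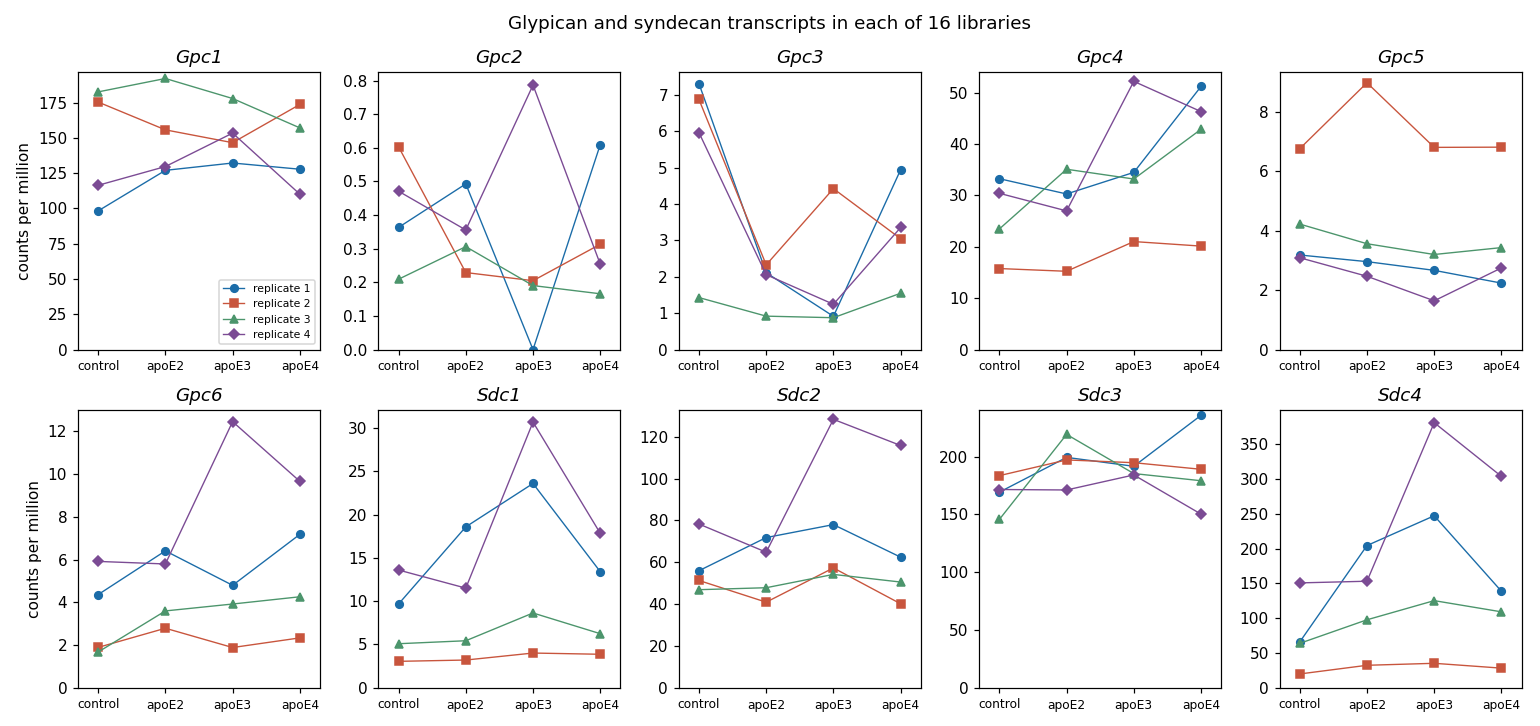
CPM of each core gene in the 16 libraries, with a linear axis from 0 in each panel. A line joins the 4 libraries that share a replicate number and is not a time course. The libraries numbered 2 are lowest for Sdc4 and Sdc1 and highest for Gpc5 in all 4 groups, while the lines of numbers 1 and 4 cross. The line of every number for Gpc3 falls from control to apoE2.

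Without the replicate block, none of the 10 members passed an adjusted p of 0.05 in any of the 6 comparisons (edgeR's quasi-likelihood test, Benjamini-Hochberg over 17038 genes). The share of all genes called by that test against control was 0% for apoE2, 0.00587% for apoE3 and 0.194% for apoE4. Between isoforms it was 0.147% for apoE4 against apoE3, 0.252% for apoE4 against apoE2 and 0% for apoE3 against apoE2. DESeq2 without the block likewise called 0 members in each comparison. Of all genes it called 32, 60 and 91 against control and 69, 165 and 9 between isoforms, in the same order. At an unadjusted p under 0.05, edgeR passed 475, 1095 and 563 of the 17038 genes for apoE2, apoE3 and apoE4 against control. Between isoforms it passed 801, 910 and 389 in the order above. Of the members it passed 1 with apoE2, 1 with apoE3 and 0 in each other comparison. That member was Gpc3 in each case, and it was the only member with at least a 2-fold change and an unadjusted p under 0.05 in edgeR, thresholds that the study applied to a different test.

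With the replicate block, 1 member was called with apoE2 (Gpc3, lower), 3 with apoE3 (Sdc4 and Sdc1, higher, and Gpc3, lower) and 2 with apoE4 (Sdc4 and Gpc4, higher). In the same fit, the share of all genes called higher was 1.17% for apoE2, 7.95% for apoE3 and 3.18% for apoE4, and the share called lower was 0.552%, 3.73% and 0.129%. Between isoforms, 1 member was called, Gpc4, higher with apoE4 than with apoE2, and 0 in the other comparisons, where 1 member passed an unadjusted p under 0.05 for apoE4 against apoE3 and 4 for apoE3 against apoE2. The count over all genes at that unadjusted threshold in the blocked fit is not given here. The share of all genes called in either direction was 4.44% for apoE4 against apoE2, 1.77% for apoE4 against apoE3 and 1.31% for apoE3 against apoE2. DESeq2 with the block called 0 members for apoE4 against apoE3 and 1 for apoE3 against apoE2, beside 701 and 735 of all genes. The 3 comparisons with control share the same control libraries, so their values are set side by side and are not independent of each other. The median log2 fold change over the 10 members in the fit without the block was 0.07 for apoE2, 0.31 for apoE3 and 0.19 for apoE4, beside 0.01, 0.02 and 0.00 over all genes tested. The 4 syndecans alone had medians of 0.27, 0.77 and 0.30, and the 6 glypicans had medians of 0.06, -0.09 and -0.09.

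**Figure D3:**
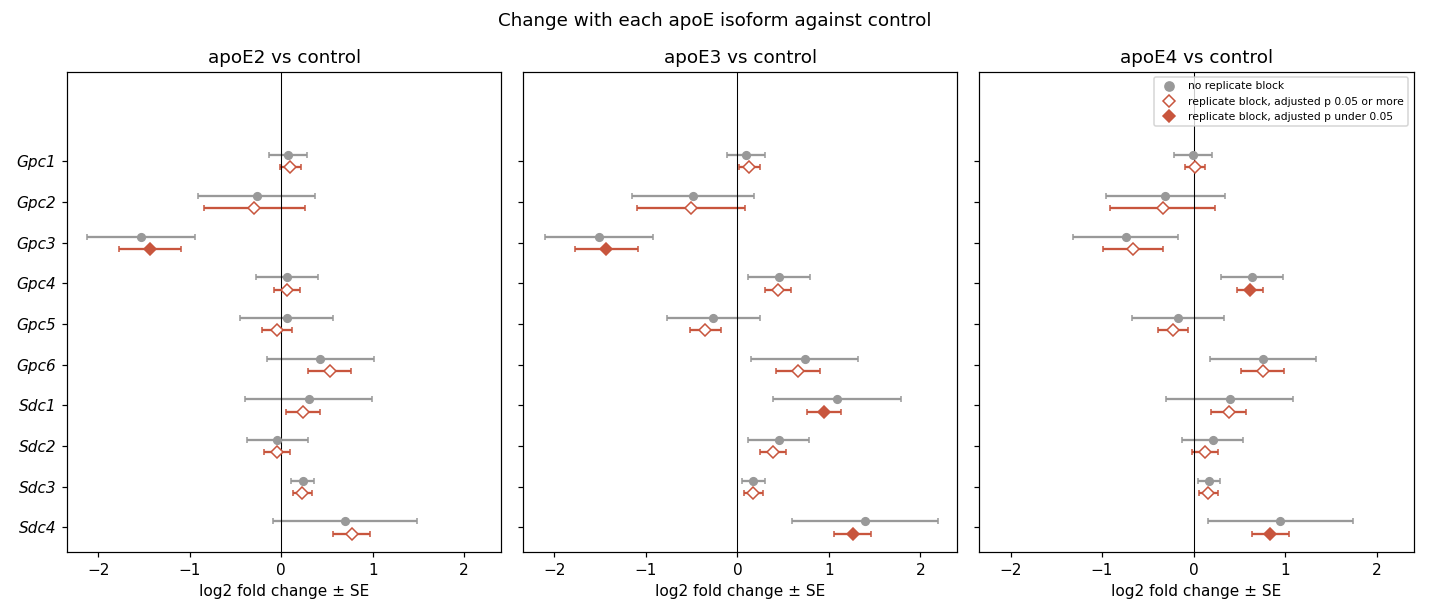
Log2 fold change of each core gene against control with its SE, for apoE2, apoE3 and apoE4, over 4 libraries per group. Grey circles are the fit without the replicate block, diamonds the fit with it, and filled diamonds have an adjusted p under 0.05. The points of the 2 fits lie close together while the SE of Sdc4 shrinks from 0.80 to 0.21 with apoE3.

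Sdc4, the syndecan of focal adhesions (chr2:164424247-164443887, minus strand, GRCm38), had the largest called increase of the family. In control its level was 65.9, 19.9, 63.9 and 151 CPM in replicates 1 to 4. With apoE2 it was 205, 32.4, 97.8 and 153 CPM in the same order. With apoE3 the 4 libraries had 247, 35.2, 125 and 381 CPM. All 4 apoE3 libraries exceeded the control library of the same number, by 1.77 to 3.75-fold, although the ranges of the groups overlapped. With apoE4 the 4 libraries had 139, 28.3, 109 and 304 CPM, 1.42 to 2.11-fold above the control of the same number. The log2 fold change with apoE3 was 1.39 ± 0.80 (SE) without the block, with an adjusted p of 0.803 in edgeR, and 1.26 ± 0.21 with the replicate block, with an adjusted p of 0.00194. With apoE4 it was 0.95 ± 0.79 without the block (edgeR adjusted p = 1.00) and 0.84 ± 0.20 with it (adjusted p = 0.0349). With apoE2 the value was 0.77 ± 0.21 in the same fit and did not pass (edgeR adjusted p = 0.0766), although each of the 4 libraries was above its control. It was called in 3 of 19 alternatives to that fit, namely no low-count filter, DESeq2, and the fit without apoE2 replicate 4. The differences between isoforms did not pass for Sdc4 in the blocked edgeR fit: apoE4 against apoE3 gave -0.42 ± 0.20 (edgeR with block, adjusted p = 0.321) and apoE3 against apoE2 gave 0.49 ± 0.20 (adjusted p = 0.248). Both were called in 1 of 19 alternatives, with no low-count filter (adjusted p = 0.00459 and 0.000472).

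The Sdc4 call with apoE3 held with the block when any of the 16 libraries was left out, with log2 fold changes of 1.07 to 1.35. The call with apoE4 was lost in 6 of these 16 fits. Without apoE4 replicate 2, 3 or 4 the edgeR adjusted p was 0.0512, 0.102 and 0.153, and without control replicate 1, 3 or 4 it was 0.1501, 0.0745 and 0.0893. The log2 fold change in those 6 fits stayed between 0.67 and 0.90.

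Sdc1, the syndecan best known from epithelia and plasma cells (chr12:8771323-8793715, plus strand), was a minor transcript that followed the same library order. In control it stood at 9.67, 3.06, 5.09 and 13.6 CPM in replicates 1 to 4. With apoE3 the values were 23.6, 4.01, 8.64 and 30.7 CPM. Each apoE3 library was 1.31 to 2.44-fold above its control, with the largest excess in replicates 1 and 4, which were also the highest in control. With apoE2 (18.6, 3.21, 5.43 and 11.5 CPM) replicate 1 exceeded its control most, and replicate 4 fell below its own. With apoE4 the libraries had 13.4, 3.87, 6.25 and 17.8 CPM. The log2 fold change with apoE3 was 1.09 ± 0.70 without the block (edgeR adjusted p = 0.806) and 0.94 ± 0.19 with it (adjusted p = 0.00522), and the call held when any of the 16 libraries was left out. With apoE2 and apoE4 the blocked values were 0.24 ± 0.19 and 0.38 ± 0.19 (edgeR adjusted p = 0.663 and 0.325). The differences between isoforms did not pass either: Sdc1 was 0.71 ± 0.18 higher with apoE3 than with apoE2 (edgeR with block, adjusted p = 0.0729, and called in 4 of 19 alternatives to that fit, namely DESeq2, no low-count filter, and the fits without apoE2 replicate 1 or apoE3 replicate 2, with adjusted p down to 0.000289) and -0.56 ± 0.18 with apoE4 against apoE3 (adjusted p = 0.147, and called in 1 of the 19, with no low-count filter, at 0.00834).

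Sdc2 and Sdc3, the syndecans of spines and axons, had no called difference in edgeR in any comparison, without or with the block. Sdc2 was at 46.9 to 78.3 CPM in control, 40.9 to 71.8 with apoE2, 54.2 to 128 with apoE3 and 40.2 to 116 with apoE4. Its blocked log2 fold change with apoE3 was 0.39 ± 0.14, with all 4 libraries above their controls (edgeR adjusted p = 0.0950), and 3 of 19 alternatives to that fit called it (no low-count filter, and without apoE2 replicate 4 or control replicate 2, adjusted p down to 0.00687). For apoE3 against apoE2, Sdc2 was called in 1 of the 19, with no low-count filter (adjusted p = 0.00281). Sdc3 varied least between replicate numbers, with number means within 1.18-fold of each other, and it had 146 to 184 CPM in control and 150 to 236 CPM across the apoE groups. Its blocked log2 fold changes were 0.23 ± 0.10, 0.17 ± 0.10 and 0.16 ± 0.10 with apoE2, apoE3 and apoE4 (edgeR adjusted p = 0.341, 0.291 and 0.469). Of the Sdc3 exon bases, 7.73% overlap antisense genes, and whether the counting used the strand is not stated.

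Gpc3, a glypican that restrains Hedgehog signaling and lies on the X chromosome beside Gpc4 (Gpc3 at X:52272426-52613950 and Gpc4 at X:52053021-52165252, both on the minus strand of GRCm38), was the only member called lower. In control it had 7.31, 6.87, 1.43 and 5.96 CPM in replicates 1 to 4. With apoE2 the values were 2.11, 2.33, 0.918 and 2.06 CPM. With apoE3 they were 0.913, 4.42, 0.875 and 1.25 CPM. Every apoE2 and apoE3 library lay below the control of the same number, and the groups overlapped only through control replicate 3 with apoE2, and through control replicate 3 and apoE3 replicate 2 with apoE3. With apoE4 the level was between, at 4.94, 3.05, 1.55 and 3.36 CPM, and 3 of 4 libraries were below their controls. These values rest on few reads, with 487 counts in the 4 control libraries together, 196 with apoE2, 162 with apoE3 and 274 with apoE4.

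The log2 fold change of Gpc3 was -1.54 ± 0.59 with apoE2 and -1.51 ± 0.59 with apoE3 without the block (edgeR adjusted p = 1 and 0.757). With the replicate block it was -1.44 ± 0.34 (adjusted p = 0.0439) and -1.43 ± 0.35 (adjusted p = 0.0159). With apoE4 the blocked value was -0.67 ± 0.33 and did not pass (edgeR adjusted p = 0.328), and apoE4 against apoE2 or apoE3 gave 0.77 ± 0.35 and 0.77 ± 0.36 (adjusted p = 0.263 and 0.310). With no low-count filter these 3 differences were called (adjusted p = 0.0411, 0.0277 and 0.0438). When 1 library was left out, apoE4 against apoE3 ran from 0.43 without apoE3 replicate 1 (adjusted p = 0.701) to 1.39 without apoE3 replicate 2, where it was called (0.0431), and the apoE4 value against control was -0.39 without apoE4 replicate 2. The apoE3 call was lost without apoE3 replicate 1 or 4 (adjusted p = 0.0594 and 0.0706) or control replicate 1 or 4 (0.0663 and 0.0505). The apoE2 call was lost without apoE2 replicate 1, 2 or 3 (adjusted p = 0.111, 0.185 and 0.0938) or control replicate 1, 2, 3 or 4 (0.190, 0.0927, 0.0515 and 0.123). It was also lost without apoE3 replicate 3 (0.0611) or apoE4 replicate 3 (0.0596), which belong to neither group compared. The sign was kept in all 16 of these fits for each isoform, with log2 fold changes of -1.62 to -1.30 with apoE2 and -2.07 to -1.10 with apoE3, where -2.07 was the value without apoE3 replicate 2.

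Gpc4, the synaptogenic glypican that binds the postsynaptic receptor Gpr158 and presynaptic receptor phosphatases, was the member called between apoE4 and apoE2. In control it had 33.2, 15.8, 23.5 and 30.4 CPM in replicates 1 to 4, and with apoE2 30.3, 15.2, 35.1 and 27.0 CPM. With apoE4 it had 51.2, 20.1, 42.9 and 46.3 CPM. Each apoE4 library exceeded its control by 1.28 to 1.83-fold, and the groups overlapped through the libraries numbered 2. With apoE3 the values were 34.5, 21.01, 33.2 and 52.2 CPM, all above their controls but closer to them in replicate 1. The log2 fold change with apoE4 against control was 0.64 ± 0.34 without the block (edgeR adjusted p = 1.00) and 0.61 ± 0.14 with it (adjusted p = 0.0276). Against apoE2 it was 0.58 ± 0.34 without the block (edgeR adjusted p = 1.00) and 0.55 ± 0.14 with it (adjusted p = 0.0397). With apoE3 against control the blocked value was 0.45 ± 0.14 (edgeR adjusted p = 0.0542, and called in 5 of 19 alternatives: no low-count filter, DESeq2, and without apoE2 replicate 3, apoE2 replicate 4 or apoE3 replicate 1), with apoE2 against control 0.07 ± 0.14, and between apoE4 and apoE3 0.16 ± 0.14 (adjusted p = 0.603). Gpc4 for apoE3 against apoE2 was at 0.38 ± 0.14 (adjusted p = 0.202) and was called with no low-count filter (0.0331).

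Several single libraries decided the Gpc4 calls. The call against control was lost without apoE4 replicate 1, 3 or 4 (edgeR with block, adjusted p = 0.112, 0.0824 and 0.0790) and without control replicate 1, 3 or 4 (0.0537, 0.116 and 0.0935). The call against apoE2 was lost without apoE4 replicate 1, 3 or 4 (0.145, 0.132 and 0.0873), without apoE2 replicate 1, 2 or 4 (0.0904, 0.103 and 0.146) and without control replicate 4 (0.0548). The log2 fold change stayed positive, at 0.52 to 0.68 against control and 0.43 to 0.70 against apoE2.

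Gpc1, Gpc2, Gpc5 and Gpc6 had no called difference in edgeR, without or with the block. Gpc1, the main glypican of neurons, was at 98.3 to 183 CPM in control and 110 to 192 CPM across the apoE groups. Its blocked log2 fold changes were 0.10 ± 0.11, 0.13 ± 0.11 and 0.01 ± 0.11 with apoE2, apoE3 and apoE4, the narrowest intervals among the glypicans. Of its exon bases, 18.9% overlap Ankmy1 on the other strand. Gpc6, the other astrocyte-secreted synaptogenic glypican, was at 1.67 to 5.91 CPM in control, 2.79 to 6.40 with apoE2, 1.88 to 12.4 with apoE3 and 2.33 to 9.66 with apoE4. Its blocked log2 fold changes were 0.53 ± 0.24, 0.66 ± 0.24 and 0.76 ± 0.24 (edgeR adjusted p = 0.354, 0.0844 and 0.107), and all 4 apoE4 libraries were above their controls. Of 19 alternatives to the blocked fit, 3 called Gpc6 with apoE3 (no low-count filter, and without apoE2 replicate 4 or apoE3 replicate 2, adjusted p down to 0.0131) and 3 with apoE4 (no low-count filter, DESeq2, and without apoE2 replicate 4, down to 0.00387). Gpc5, the neighbour of Gpc6 on chromosome 14, was at 3.09 to 6.75 CPM in control and 1.64 to 8.97 CPM across the apoE groups. It had blocked values of -0.05 ± 0.16, -0.35 ± 0.17 and -0.23 ± 0.17 (edgeR adjusted p = 0.952, 0.198 and 0.545). Gpc2, a glypican of developing axons, had 0 to 15 counts in a library, or 0.209 to 0.603 CPM in control and up to 0.787 CPM in the apoE groups, and the apoE3 library with 0 counts allows up to 0.228 CPM (3 counts, counting error only). The blocked log2 fold changes of Gpc2 were -0.29 ± 0.55, -0.51 ± 0.59 and -0.34 ± 0.57 with apoE2, apoE3 and apoE4 (edgeR adjusted p = 0.895, 0.6185 and 0.816). How large a difference of Gpc2 could be detected at this depth was not tested. In addition, 55.6% of its exon bases are shared with Gm43720 on the same strand, and the effect of that overlap on its counts was not tested.

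Summed markers of several non-neuronal cell types also stood above control with apoE3 and apoE4. The summed astrocyte markers were 1.19 to 2.10-fold above the control of the same number with apoE3, in 4 of 4 libraries, and 1.11 to 1.71-fold with apoE4. With apoE2 the ratio was 0.896 to 1.46, with 2 of 4 libraries above. ApoE2 replicates 2 and 4 had a lower astrocyte sum than their controls (1152 against 1285 and 2599 against 2732 CPM). Sdc4 in these libraries was 32.4 against 19.9 CPM in replicate 2 and 153 against 151 CPM in replicate 4. With the replicate block, 7 of the 8 astrocyte markers were called higher with apoE3, among them Gfap with a log2 fold change of 1.40, 4 were called higher with apoE4 and 0 with apoE2. The share of GFAP-labeled cells that the study counted did not vary significantly between treatments. Without the block edgeR called 0 markers of any cell type with each isoform. The summed markers of dividing cells were above control in 4 of 4 pairs with each isoform, by 1.12 to 2.16-fold for apoE2, 1.57 to 2.89-fold for apoE3 and 1.36 to 1.63-fold for apoE4. With apoE3 the oligodendrocyte-lineage sum was 1.30 to 1.98-fold and the mural or fibroblast-like sum 1.09 to 1.90-fold above control, in 4 of 4 pairs each. With apoE4 these sums were 1.02 to 1.54-fold and 1.04 to 1.82-fold above control, again in 4 of 4 pairs, and with apoE2 they were above in 3 and 1 of 4. The endothelial sum was above control in every pair with each isoform, and reached at most 4.07 CPM. The ependymal or choroid plexus sum was above control in 4 of 4 pairs with apoE3 and apoE4 and in 3 with apoE2, and the microglial sum in 3 of 4 pairs with each isoform. With the block, 3 of 6 dividing-cell, 3 of 8 oligodendrocyte-lineage, 1 of 7 mural, 1 of 2 endothelial and 1 of 4 ependymal markers were called higher with apoE3. With apoE4, 1 marker each of the dividing-cell, oligodendrocyte-lineage, mural and endothelial lists was called higher. With apoE2, 1 dividing-cell marker was called higher. Of 9 neuron markers, 3 were called lower and 1 higher with apoE3, and 0 with apoE2 or apoE4. The summed neuron markers with apoE3 stood at 0.709 to 0.993 times their controls, and in 2 of 4 pairs with apoE2 and 1 of 4 with apoE4 they were above.

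Set against the astrocyte marker sum of its own library, Sdc4 was 1.07 to 2.12-fold above control with apoE2, 1.24 to 1.79-fold with apoE3 and 1.16 to 1.28-fold with apoE4, in 4 of 4 pairs each. Sdc1 on this scale stood at 0.890 to 1.31 times control with apoE2, 1.10 to 1.27 times with apoE3 and 0.768 to 1.14 times with apoE4. Gpc4 on the same scale stood at 0.623 to 1.26 times control with apoE2, 0.494 to 1.12 times with apoE3 and 0.892 to 1.24 times with apoE4. Gpc3 was lower in every pair on this scale, at 0.198 to 0.543 times control with apoE2, 0.0596 to 0.540 times with apoE3 and 0.330 to 0.734 times with apoE4. These ratios are descriptions, and the part of the other cell types' marker RNA in the changes was not tested.

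**Figure D4:**
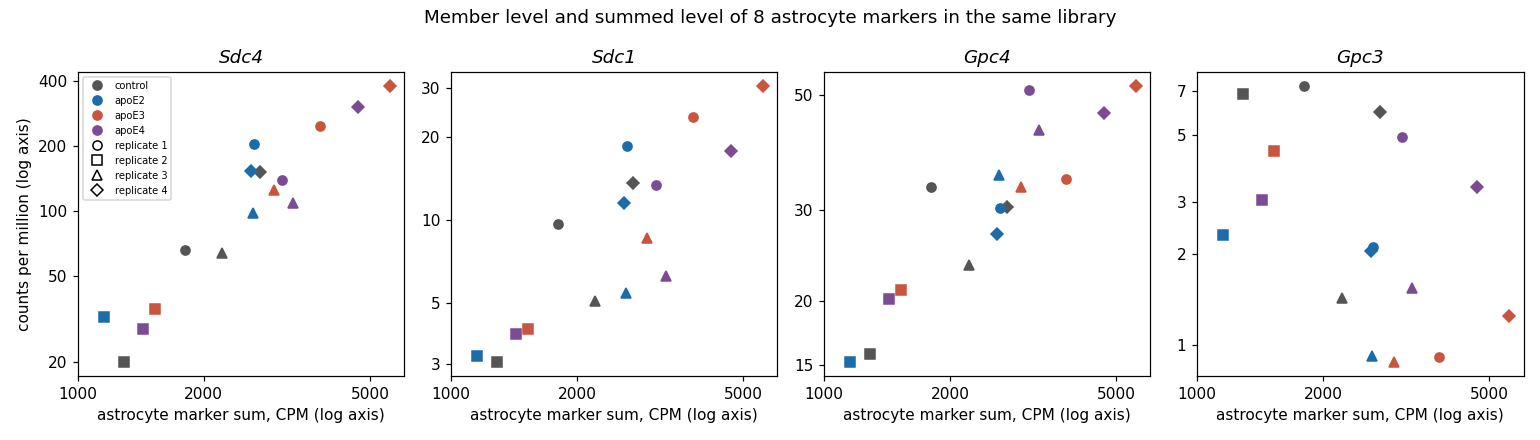
CPM of Sdc4, Sdc1, Gpc4 and Gpc3 (vertical, log axis) beside the summed CPM of 8 astrocyte markers in the same library (horizontal, log axis). Colours are groups and marker shapes replicate numbers. The libraries numbered 2 have the lowest astrocyte sum and the lowest Sdc4 and Sdc1 of their group, and in the Gpc3 panel the control libraries 1, 2 and 4 lie above the others.

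Genes whose level followed a member most closely over the 16 libraries were named by Pearson's r of log2 CPM, as a description with no test, since libraries of the same number deviate together and many genes move with them. For Sdc4 these were Cd109 (r = 0.99), Lcn2 (0.99) and Erbb2ip (0.99), and after the means of the replicate numbers were subtracted Cnn3 (0.99), Cd109 (0.99) and Anxa2 (0.99). For Sdc1 they were Hyal1, Mybl1 and Gsap (0.99 each), and after subtraction Capn2, Gnai2 and Npc2 (0.97, 0.97 and 0.96). Gpc3 was followed by Efnb3 (0.94), Rasl10a (0.93) and Plppr3 (0.90), and after subtraction by Plppr3 (0.97), Efnb3 (0.96) and Cdh9 (0.94). Gpc4 was followed by Fnbp1, Zfp219 and Plekhh2 (0.96, 0.96 and 0.94), and after subtraction by Rbms2, Asap1 and Wnk1 (0.98, 0.95 and 0.95). Plppr3 and Efnb3 are genes of neurons, whereas Cd109, Cnn3 and Anxa2 are expressed in glial and mesenchymal cells.

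The genes that build, trim and read heparan sulfate were followed on 8 lists with 114 genes, of which 109 were tested. Without the block edgeR called 0 of them in each comparison. At an unadjusted p under 0.05 it passed 9, 16 and 2 of them for apoE2, apoE3 and apoE4 against control. It passed 7, 6 and 2 for apoE4 against apoE3, apoE4 against apoE2 and apoE3 against apoE2. Of all 17038 genes, 475, 1095 and 563 passed that threshold against control and 801, 910 and 389 between isoforms, in the same order. DESeq2 without the block called 1, 1 and 1 of the 109 against control and 0, 2 and 0 between isoforms. Of all genes it called 32, 60 and 91 against control and 69, 165 and 9 between isoforms. With the replicate block the higher calls numbered 8 for apoE2, 18 for apoE3 and 6 for apoE4, and the lower calls 4, 13 and 1. As shares of the 109 genes, the higher calls were 7.34%, 16.5% and 5.50% (1.17%, 7.95% and 3.18% of all genes tested), and the lower calls 3.67%, 11.9% and 0.917% (0.552%, 3.73% and 0.129% of all). Their median log2 fold change without the block was 0.06, 0.08 and 0.06, beside 0.01, 0.02 and 0.00 over all genes. The lists were chosen with earlier results of these data known, and they hold Nptx1 and Wnt7a, which the paper reports as lowered. These shares and medians are therefore descriptions and no test of the pathway. The values that follow are log2 fold changes against control with the block, and edgeR without the block made none of these calls, with 0.0582 as the smallest adjusted p of a named gene (Ndst1, apoE4 against apoE2).

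The extracellular sulfatases, which remove 6-O-sulfates from the chains of glypicans and syndecans and so alter ligand binding, are Sulf1 and Sulf2. Sulf1 had 12.9, 4.70, 6.45 and 13.97 CPM in control and 27.8, 8.36, 13.3 and 40.2 CPM with apoE3, so each apoE3 library was higher than its control. Sulf1 gave 1.03 ± 0.12 for apoE2, 1.15 ± 0.12 for apoE3 and 0.46 ± 0.12 for apoE4 (edgeR adjusted p = 0.000983, 8.64e-05 and 0.0486). Sulf1 was lower with apoE4 than with the other isoforms, at -0.69 ± 0.12 against apoE3 and -0.57 ± 0.12 against apoE2 (edgeR adjusted p = 0.00605 and 0.0103). Sulf2 was at 0.65 ± 0.12 with apoE2 and 0.96 ± 0.12 with apoE3 (adjusted p = 0.0125 and 0.000289), and was lower with apoE4 than with apoE3, at -0.56 ± 0.12 (adjusted p = 0.0237). With apoE4 against control Sulf2 was at 0.40 ± 0.12 and against apoE2 at -0.25 ± 0.12, and neither passed (adjusted p = 0.0760 and 0.280). The heparanase Hpse, the other tested gene of that list, had no called difference.

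Among 12 genes of the linker and of chain polymerization, apoE2 had 1 higher and 1 lower call, apoE3 had 2 higher and 3 lower, and apoE4 had 0. Ext1, a subunit of the polymerase of the chain, was at 0.32 ± 0.07 with apoE2 and 0.44 ± 0.07 with apoE3 (edgeR adjusted p = 0.0361 and 0.00185). Pxylp1, the phosphatase of the linker xylose, was at -0.84 ± 0.14 and -0.64 ± 0.14 (adjusted p = 0.00853 and 0.00959). Xylt1, which adds that xylose, was at 0.53 ± 0.13 with apoE3, and Extl1, a related glycosyltransferase, was at -0.71 ± 0.14 (adjusted p = 0.0157 and 0.00524). Between isoforms, Ext1 was at -0.33 ± 0.07 with apoE4 against apoE3 (edgeR adjusted p = 0.0292). Pxylp1 was at 0.65 ± 0.14 with apoE4 against apoE2 and Extl1 at -0.62 ± 0.14 with apoE3 against apoE2 (adjusted p = 0.0148 and 0.0428). Of 19 tested modification genes, apoE2 had 2 higher calls, apoE3 had 3 higher and 1 lower, and apoE4 had 1 higher.

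Ndst1, which starts sulfation of the chain, was the modification gene called with apoE4. It had 162, 178, 192 and 173 CPM in control and 279, 211, 289 and 238 CPM with apoE4, groups that did not overlap. Its value was 0.52 ± 0.08 (edgeR adjusted p = 0.00130), and it was higher with apoE4 than with apoE3 by 0.38 ± 0.08 and than with apoE2 by 0.60 ± 0.08 (adjusted p = 0.0189 and 0.000505). Hs6st1, a 6-O-sulfotransferase, was at 0.37 ± 0.09 with apoE2 and with apoE3 (adjusted p = 0.0441 and 0.0138). Papss2, which makes the sulfate donor, was at 1.39 ± 0.28 and 1.74 ± 0.28 (adjusted p = 0.0209 and 0.00152). Hs3st4, a 3-O-sulfotransferase, was called only between isoforms, at -0.96 ± 0.22 with apoE4 against apoE2 (adjusted p = 0.0216).

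Of the other proteoglycan cores, Cd44, a hyaluronan receptor with a heparan sulfate form, was called with each isoform. It was at 0.89 ± 0.17, 1.53 ± 0.17 and 1.08 ± 0.17 with apoE2, apoE3 and apoE4 (edgeR adjusted p = 0.0151, 0.000159 and 0.00175). The basement membrane core Hspg2 (perlecan) was at 1.19 ± 0.24 with apoE4 (adjusted p = 0.0113), Col18a1 at 0.78 ± 0.17 and the neuronal core Spock3 at -0.68 ± 0.13 with apoE3 (adjusted p = 0.00936 and 0.00549). Over the 12 other cores, apoE2 had 1 higher call, apoE3 had 2 higher and 1 lower, and apoE4 had 2 higher. Of 10 tested shedding genes, 1 was higher with apoE2, 2 with apoE3 and 0 with apoE4. These were the inhibitor Timp3 (0.82 ± 0.18 with apoE2 and 1.11 ± 0.18 with apoE3) and the membrane metalloprotease Mmp14 (0.70 ± 0.19 with apoE3), with edgeR adjusted p of 0.0358, 0.00203 and 0.0316.

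The calls among the synaptic and growth cone partners were mainly lower, with 2 of 23 lower with apoE2, 6 lower and 1 higher with apoE3, and 1 lower with apoE4. Nptx1, a neuronal pentraxin of excitatory synapses linked to Gpc4 signaling, had 171, 370, 394 and 103 CPM in control, 75.2, 118, 188 and 46.2 with apoE2, and 180, 281, 488 and 79.3 with apoE4. It was at -1.26 ± 0.14 with apoE2 and -1.01 ± 0.14 with apoE3 (edgeR adjusted p = 0.000774 and 0.000559), and higher with apoE4 than with apoE2 by 1.17 ± 0.14 and than with apoE3 by 0.92 ± 0.14 (adjusted p = 0.000246 and 0.00265). Lrrtm3, a postsynaptic adhesion protein, was at -0.64 ± 0.14 and -0.67 ± 0.14 with apoE2 and apoE3 (adjusted p = 0.0322 and 0.00778). The Slit receptor Robo2 was at -0.46 ± 0.10 with apoE3, and the Unc5 and latrophilin partner Flrt3 at -0.54 ± 0.11 with apoE3 and -0.42 ± 0.11 with apoE4 (adjusted p = 0.00937, 0.00559 and 0.0414).

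Of the 12 cytoplasmic partners of syndecans, 1 was called, the actin crosslinker Actn4, at 0.34 ± 0.08 with apoE4 (edgeR adjusted p = 0.0331). Rab5a, a small GTPase of early endosomes and the gene of that list with the next smallest p, was at -0.20 ± 0.08 with apoE4 against apoE3 (adjusted p = 0.238). Among 18 tested ligands and receptors, apoE2 had 1 higher and 1 lower call, apoE3 had 6 higher and 2 lower, and apoE4 had 1 higher. Fgf2, a growth factor that needs heparan sulfate to signal, was at 1.24 ± 0.25, 1.70 ± 0.25 and 1.47 ± 0.25 with apoE2, apoE3 and apoE4 (adjusted p = 0.0222, 0.000886 and 0.00353). Wnt7a, a Wnt ligand of dendrites and synapses, was at -1.002 ± 0.195 with apoE2 (adjusted p = 0.0185) and higher with apoE4 than with apoE2 by 1.21 ± 0.20 (adjusted p = 0.00254). With apoE3 against control Wnt7a was at -0.24 ± 0.19 and did not pass (adjusted p = 0.439). The paper, with a different test of the same libraries, names Wnt7a, Nptx1 and Gpc3 as lowered by apoE2 and apoE3. Bmp2, a bone morphogenetic protein, was at 1.74 ± 0.33 with apoE3 (adjusted p = 0.00392), and the Wnt receptor Fzd7 was higher with apoE3 than with apoE2 by 1.11 ± 0.17 and with apoE4 than with apoE2 by 0.86 ± 0.17 (adjusted p = 0.00583 and 0.00798).

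**Figure D5:**
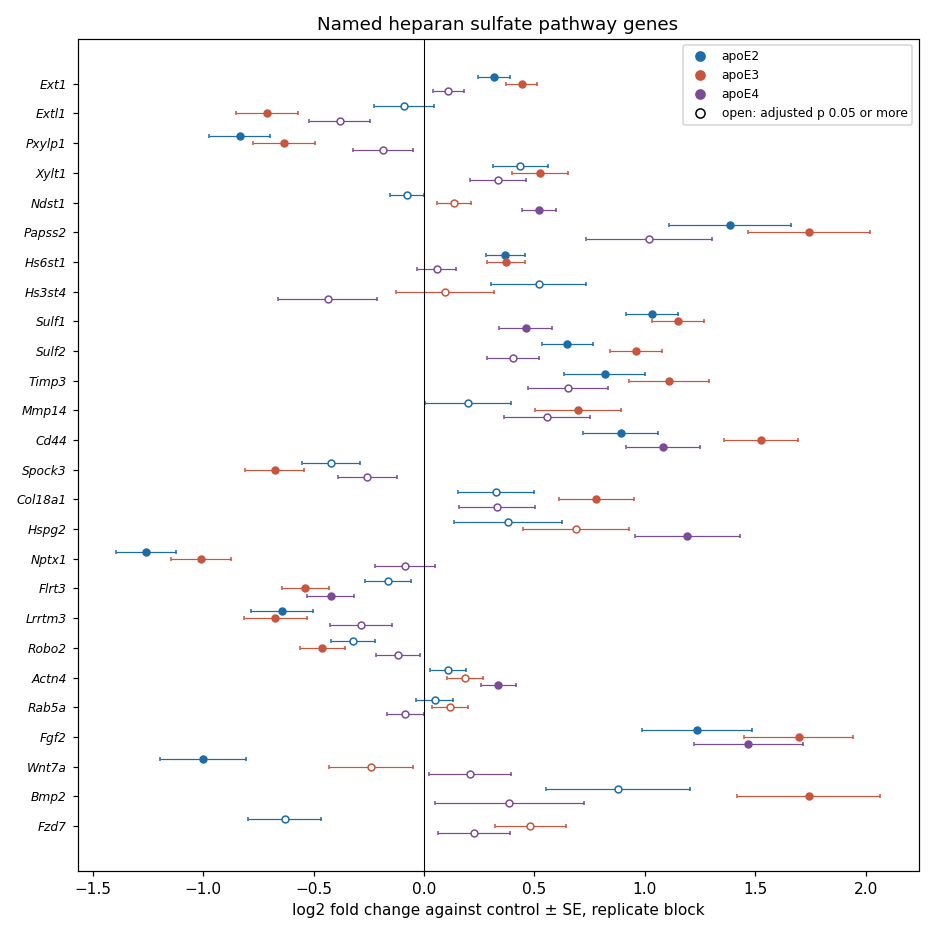
Log2 fold change against control with its SE, from the fit with the replicate block, for the 26 named heparan sulfate pathway genes. Colours are the isoforms, and filled points have an adjusted p under 0.05. Sulf1, Cd44 and Fgf2 are filled for all 3 isoforms, and Nptx1 lies near 0 with apoE4.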

How the data were processed

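RNA was depleted of ribosomal RNA before sequencing. Per the labels and the study's methods, the authors aligned reads to mm10 with STAR and counted them per gene with HTSeq; the deposited values are raw counts without normalization. The annotation and the strand setting are not given in the sources used here. The 5 HTSeq total lines, 38.4 to 73.7% of a library, entered neither the library sizes nor the fits.

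Counts were fitted with edgeR 4.0.16 in R 4.3.3 (TMM, filterByExpr with a minimum count of 10, minimum total of 15 and proportion of 0.7, all 16 libraries, quasi-likelihood test, Benjamini-Hochberg adjustment). SE is the absolute log2 fold change over the square root of F. Replicate numbers in the labels paired the libraries: deviations from group means correlated at 0.362 to 0.831 between libraries of the same number (24 pairs) and at -0.736 to 0.569 otherwise (72 pairs), so a fit with the replicate block was run beside the fit without it. The origin of the pairing is not stated in the labels. DESeq2 1.42.0 was an alternative. P-values without the block measure change against the spread between the cultures of a group. Those with the block measure it against the spread left after the differences between replicate numbers are removed. Exon lengths and positions came from GENCODE M21, which matched 95.9% of symbols. Named pathway genes had an adjusted p under 0.05 in any comparison with or without the block, at most 4 per list by the smallest adjusted p with the block, or else the 2 with the smallest p. The members, lists and promoter motifs were chosen with earlier results of these data known.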

Additional observations from a re-analysis of the deposited data

Results flagged for a closer look

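Among 40 combinations of a member and a group, a gap test for a library apart from the other 3 (Dixon's, for which chance marks about 1 in 20) marked 2 combinations. Gpc3 had 4.42 CPM in apoE3 replicate 2 against 0.875 to 1.25 CPM in the other 3 apoE3 libraries. Gpc5 had 8.97 CPM in apoE2 replicate 2 against 2.46 to 3.56 CPM in the other 3. The libraries numbered 2 had the highest Gpc5 level in all 4 groups. A difference between isoforms passed the test of the difference itself for Gpc4, with a log2 fold change of 0.55 for apoE4 against apoE2 in the fit with the replicate block.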

How the results depend on the processing

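Without the replicate block, every alternative run (DESeq2 size factors, no low-count filter, a stricter filter, DESeq2, only the 2 groups compared, and each library left out) gave 0 called members in each comparison. The replicate block gave 1, 3, 2, 0, 1 and 0 called members for apoE2, apoE3 and apoE4 against control, apoE4 against apoE3, apoE4 against apoE2 and apoE3 against apoE2, and 12, 31, 7, 6, 9 and 3 called pathway genes, against 0 without it. DESeq2 without the block called 1, 1, 1, 0, 2 and 0 pathway genes, beside 32, 60, 91, 69, 165 and 9 of all genes.

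The alternatives to the blocked fit, other than leaving out libraries, were chosen after seeing the data. Leaving out 1 library each time with the block gave 0 to 2 called members for apoE2, 2 to 6 for apoE3, 0 to 3 for apoE4, 0 to 1 for apoE4 against apoE3, 0 to 1 for apoE4 against apoE2 and 0 to 1 for apoE3 against apoE2. The highest counts came without apoE2 replicate 4 for apoE2 (2) and apoE3 (6), and without apoE3 replicate 2 for apoE4 against apoE3 (1). For apoE3 against apoE2 (1) they came without apoE2 replicate 1 or apoE3 replicate 2. Calls over all genes in these fits were 851 and 2714 (294 and 1990 with all libraries), 425 (301), and 254 and 179 (224). In apoE2 replicate 4, Lars2 was 0.690% and 38.4% of the HTSeq total was not on 1 gene, against medians of 5.98% and 59.6%. ApoE4 replicate 2 was near it (0.359% and 38.6%). The libraries whose removal lost a call stand beside each gene above. No low-count filter with the block gave 2, 6, 4, 3, 2 and 4 in the order above, and DESeq2 with the block gave 2 for apoE2 against control, 4 for apoE3, 3 for apoE4 and 1 for apoE3 against apoE2; the cause was not tested. Without that filter the blocked fit called 1091, 2953 and 1438 of all genes against control and 1195, 1499 and 1242 between isoforms. DESeq2 with the block called 709, 2705 and 955 against control and 701, 1242 and 735 between isoforms. The blocked edgeR fit with the filter called 294, 1990 and 563 against control and 301, 757 and 224 between isoforms. The calls that DESeq2 with the block added were Sdc4 for apoE2, Gpc4 for apoE3, Gpc6 for apoE4 and Sdc1 for apoE3 against apoE2. The calls of Sdc4 and Sdc1 with apoE3 held in all 19 alternatives to the blocked fit, Gpc3 held in 10 with apoE2 and 15 with apoE3, Gpc4 in 13 and Sdc4 in 13 with apoE4, and Gpc4 in 12 for apoE4 against apoE2. None of the 20 member changes with an unadjusted p under 0.05 in either fit changed sign. Of all 60 member changes, 32 changed sign under some alternative without the block and 18 with it. The fewest reads were on Gpc2, with 22 to 38 counts over the 4 libraries of a group.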
